A study of Homo sapiens with 6 samples.

Results

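Cadherins are calcium-dependent adhesion receptors that join a cell to its neighbours, and their cytoplasmic tails hold the actin skeleton through beta-catenin, alpha-catenin and p120-catenin. Epithelia are held together mainly by E-cadherin (CDH1), often with P-cadherin (CDH3), whereas neural, mesodermal and many migrating cells carry N-cadherin (CDH2). In epithelial-mesenchymal transition (EMT) the transcription factors of the SNAI and ZEB families bind E-box sequences and repress CDH1, TWIST1 acts beside them, and the intermediate filament protein vimentin (VIM) accumulates. The pouches of the embryonic pharynx are outgrowths of foregut endoderm, an epithelium, and the thymus and parathyroid glands arise from the third pouch.

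The 10 genes described here, CDH1, CDH2, CDH3, EPCAM, VIM, SNAI1, SNAI2, TWIST1, ZEB1 and ZEB2, were chosen by symbol from the 58735 genes counted, and 8 of them passed the filter on low counts, ZEB1 and ZEB2 being too low. RNA-seq was done on 6 libraries, 3 labelled siControl (NC) and 3 labelled siHOXA3 (Si-HOXA3), of endoderm of the third pharyngeal pouch (3PPE) differentiated from H9 (WA09), 1 human embryonic stem cell line with a wild-type genotype. Cells of both groups had been kept on mouse embryonic fibroblast (MEF) feeders, were led toward endoderm with Activin A, WNT3A, B27 and the ROCK inhibitor Y-27632, and were replated on Matrigel with B27, retinoic acid, BMP4, the TGF-beta receptor inhibitor SB431542 and the WNT secretion inhibitor IWP2. At day 7 negative control siRNA or HOXA3 siRNA was delivered by lipofection, opti-MEM replaced the medium some hours later, and RNA was taken at day 9. The counts summed to 14885355, 15171278 and 15191386 in NC replicates 1, 2 and 3 and to 14652931, 15282307 and 14117150 in Si-HOXA3 replicates 1, 2 and 3. The labels do not say that the 3 replicates of a group were separate cultures, although the study describes the repeats of its experiments as independent, and p-values measure only the spread between these libraries.

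HOXA3, the gene targeted by the siRNA, was counted 248, 240 and 236 times in the NC libraries and 159, 199 and 220 times in the Si-HOXA3 libraries. On the CPM scale (counts per 1000000 counted), its mean was 16.0 ± 0.601 in NC and 13.2 ± 2.27 in Si-HOXA3 (SD, 3 libraries each, as for every mean here). The library labelled Si-HOXA3 replicate 3 lay within the range of the NC libraries on this scale, so the groups overlapped. The log2 fold change of Si-HOXA3 over NC was -0.27 with a standard error (SE) of 0.157, and the p of edgeR's quasi-likelihood test adjusted by Benjamini-Hochberg over the 16561 genes tested was 0.828. With Si-HOXA3 replicate 1 left out the log2 fold change was -0.15, and with Si-HOXA3 replicate 3 left out it was -0.40. Every comparison below is therefore between libraries named by their labels.

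The labelled cell type was set beside its markers. Of 9 endoderm and pouch genes, 3 passed the filter, and SOX17, FOXA2 and PAX1, factors of definitive endoderm, foregut endoderm and pharyngeal pouch, had at most 3 counts in any library. These 3 were named after their values were seen. Other genes of the list were detected, above all EYA1, a cofactor gene of pouch and placode development, with 477, 607 and 559 counts in NC and 552, 597 and 633 in Si-HOXA3 (36.2 ± 4.06 and 40.6 ± 3.42 CPM, groups overlapping). The list summed to 49.9, 57.2 and 54.0 CPM in NC and to 50.7, 54.5 and 61.5 CPM in Si-HOXA3, of which HOXA3 made up 16.0 and 13.2 CPM on average. Genes usually read as markers of amnion and trophoblast were abundant, with 3110 ± 156 CPM in NC for the growth factor binding protein IGFBP3, 661 ± 57.2 CPM for the keratin KRT7 and 568 ± 39.0 CPM for VTCN1. Matrix genes of mesenchyme were abundant too, with 1361 ± 52.7 CPM for the collagen COL1A1, 1198 ± 102 CPM for fibronectin FN1 and 1143 ± 96.6 CPM for lumican (LUM), while LIN28A, an RNA-binding protein of pluripotent cells, stood at 1047 ± 13.7 CPM and the pluripotency factor POU5F1 at 5.46 ± 0.614 CPM. The levels below are thus averages over the whole culture, and in bulk RNA fewer cells of a type and less RNA per cell cannot be told apart. The submitters' processing notes name mouse genome builds although the identifiers are human, and the share of reads from the MEF feeder was not tested.

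A further property of the libraries bears on several values. The library labelled Si-HOXA3 replicate 2 stood apart from the other 5. A chi-square over genes, divided by its degrees of freedom, was 24.9 to 29.8 in the 5 pairs that held it and 4.50 to 10.4 in the other 10 pairs. The deviation of its genes from their mean over the other 5 libraries correlated with transcript length at a Spearman rho of -0.40 across 16556 genes. The same measure was 0.09 to 0.17 in the others, and genes are not independent replicates. Beside the members' values and the list medians, the lowest and highest value with 1 library left out is given where it moved by more than 1.5 times or turned direction, with the library named.

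The promoters of VIM and CDH2 are shown because these were the members whose groups did not overlap. RefSeq promoter sequences (GRCh38.p14), running from 250 bases before to 50 bases after a gene's start, were matched for 4 of the 10 members in 11 windows: CDH2, VIM, ZEB1 and ZEB2. CDH1, CDH3, EPCAM, SNAI1, SNAI2 and TWIST1 were not matched. Both strands were searched for the E-box CACCTG, the form bound by SNAI and ZEB proteins, which reads CAGGTG on the opposite strand, and for TAATTA, a core recognized by many homeodomain proteins that reads the same on both strands. The motifs do not overlap each other, and capitals mark a match.
VIM promoter, chr10:17227991-17228290, plus strand: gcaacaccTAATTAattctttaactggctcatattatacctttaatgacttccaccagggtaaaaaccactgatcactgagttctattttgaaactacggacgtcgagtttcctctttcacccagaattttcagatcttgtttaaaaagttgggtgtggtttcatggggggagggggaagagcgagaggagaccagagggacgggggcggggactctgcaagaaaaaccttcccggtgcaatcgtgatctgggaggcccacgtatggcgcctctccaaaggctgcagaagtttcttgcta
CDH2 promoter, chr18:28177081-28177380, minus strand: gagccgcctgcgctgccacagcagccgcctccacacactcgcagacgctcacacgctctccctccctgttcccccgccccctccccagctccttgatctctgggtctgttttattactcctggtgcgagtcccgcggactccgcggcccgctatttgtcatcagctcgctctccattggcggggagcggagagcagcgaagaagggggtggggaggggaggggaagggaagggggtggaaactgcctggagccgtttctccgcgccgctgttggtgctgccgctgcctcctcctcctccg

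The VIM window held 1 TAATTA, at position -242 from the start, and no CACCTG. Neither motif was found in the CDH2 window shown, in a second CDH2 window or in the ZEB2 window. Among the windows of ZEB1, 1 held CACCTG or its complement at -57 and another held 3 such matches, and none held TAATTA. Of 35116 promoter windows of the same length, 20.6% held CACCTG or CAGGTG and 4.84% held TAATTA. A match is a description of the letters and not a binding site, and the absence of a match says only that these letters are not in the window.

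E-cadherin was abundant in these cultures and did not differ between the groups beyond their spread. CDH1 (ENSG00000039068, chromosome 16, 68737225 to 68835548, plus strand, GRCh38) was counted 9913, 9983 and 10125 times in NC and 9718, 8114 and 9693 times in Si-HOXA3. The lowest value was that of the library labelled Si-HOXA3 replicate 2, and the groups overlapped. Mean CPM was 661 ± 2.75 in NC and 628 ± 78.4 in Si-HOXA3, so that the log2 fold change was -0.07 (95% interval -0.33 to 0.19), and its adjusted p was 0.926. Without that library the log2 fold change was 0.02, and without Si-HOXA3 replicate 3 it was -0.13.

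P-cadherin, which lies just before CDH1 on the same chromosome, was about as abundant per length. CDH3 (ENSG00000062038, chromosome 16, 68636189 to 68722616, plus strand) had 9649, 9875 and 10251 counts in NC and 9648, 10135 and 9069 in Si-HOXA3. Its mean of 656 ± 12.6 CPM in NC lay within the spread of the 657 ± 18.2 CPM in Si-HOXA3, and the log2 fold change had a 95% interval of -0.22 to 0.22 (adjusted p = 0.995) and ran from -0.02 with Si-HOXA3 replicate 2 left out to 0.03 with Si-HOXA3 replicate 3 left out. Of the 50-base stretches of its longest transcript, 13.4% also occur in transcripts of other genes, so part of its count depends on how reads with several matches were counted, which the sources used here do not give.

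N-cadherin was the cadherin of the set whose groups separated. CDH2 (ENSG00000170558, chromosome 18, 27950966 to 28177446, minus strand) was counted 440, 485 and 507 times in NC and 590, 590 and 496 times in Si-HOXA3. In CPM this was 29.5, 32.0 and 33.1 against 40.5, 39.1 and 34.8, so every Si-HOXA3 value exceeded every NC value. The means were 31.5 ± 1.88 and 38.1 ± 2.94 CPM, and the log2 fold change of 0.28 (SE 0.114, 95% interval 0.03 to 0.53) had an unadjusted p of 0.0339 and an adjusted p of 0.741. A difference of this size did not pass the adjusted threshold of 0.05. The unadjusted p was above 0.05 when NC replicate 1 (0.117), NC replicate 2 (0.0799) or Si-HOXA3 replicate 1 (0.118) was left out.

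EPCAM encodes an epithelial cell adhesion molecule that is not a cadherin and serves as a surface marker of endoderm and other epithelia. The gene (ENSG00000119888, chromosome 2, 47345158 to 47387601, plus strand) had 265, 253 and 268 CPM in NC and 288, 385 and 252 CPM in Si-HOXA3. The library labelled Si-HOXA3 replicate 2 was the highest and replicate 3 the lowest of all 6, so the groups overlapped. The log2 fold change was 0.23 (SE 0.145, adjusted p = 0.828), and it was 0.04 with Si-HOXA3 replicate 2 left out and 0.36 (unadjusted p = 0.0238) with Si-HOXA3 replicate 3 left out. It was 0.11 with limma-voom and 0.14 after a correction for GC content and length.

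VIM (ENSG00000026025, chromosome 10, 17228259 to 17237593, plus strand) showed the largest log2 fold change of the 8 members tested with all libraries in the fit. Its counts were 3386, 3916 and 4039 in NC and 4357, 6527 and 4639 in Si-HOXA3, that is 227, 258 and 264 CPM against 299, 433 and 326 CPM. The groups did not overlap, and replicate 2 was the highest. Means of 250 ± 20.1 and 353 ± 71.0 CPM gave a 1.41-fold difference, or 0.50 on the log2 scale (SE 0.142, 95% interval 0.19 to 0.81), with an unadjusted p of 0.00484 and an adjusted p of 0.561. Among all genes tested, 141 had a smaller p. Without Si-HOXA3 replicate 2 the log2 fold change was 0.32 (adjusted p = 0.110), still without overlap. Over the alternative settings it ranged from 0.32 to 0.61, and its adjusted p ranged from 0.0165, reached with no filter on low counts, to 0.997.

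VIM is overlapped on the opposite strand by VIM-AS1 and AL133415.1, and whether the counting used strand is not stated, so reads of the overlapping stretches cannot be assigned with certainty. VIM-AS1 had 61, 81 and 101 counts in NC and 88, 123 and 87 in Si-HOXA3 (log2 fold change 0.34, or 0.18 to 0.52 over the settings, adjusted p = 0.843), and AL133415.1 had none. These counts were small beside those of VIM itself.

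**Figure D1:**
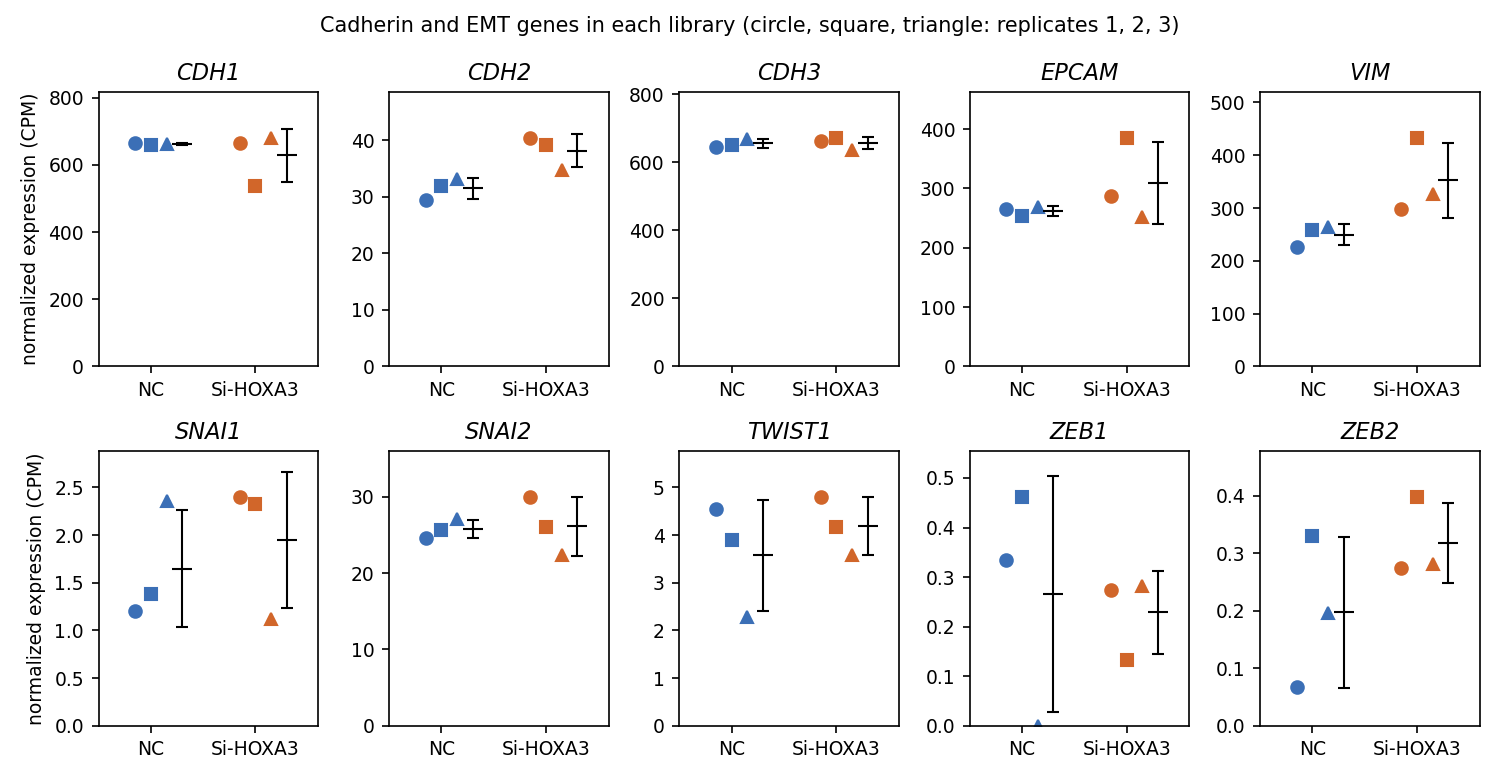
Level in CPM of the 10 members in each of the 6 libraries, 1 panel per gene with its own linear axis from 0; coloured points are libraries, and the black mark with its error bar is the mean ± SD of 3 NC or 3 Si-HOXA3 libraries. The points of the groups separate in the panels of CDH2 (29.5 to 33.1 against 34.8 to 40.5 CPM) and VIM (227 to 264 against 299 to 433 CPM) and overlap in the other 8.

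The EMT transcription factors lay below CDH1, CDH3, EPCAM and VIM per length, and none of the 3 tested differed between groups beyond its spread. SNAI2, a zinc finger repressor of CDH1 also known from migrating neural crest, had the highest level per length of the 5, with 368, 388 and 414 counts in NC and 437, 392 and 318 in Si-HOXA3. The groups overlapped, with means of 25.8 ± 1.22 and 26.1 ± 3.82 CPM and a log2 fold change of 0.02 (SE 0.134, adjusted p = 0.981), which was -0.09 with Si-HOXA3 replicate 1 left out and 0.12 with Si-HOXA3 replicate 3 left out. TWIST1, a basic helix-loop-helix factor of mesoderm and mesenchyme, had 68, 59 and 35 counts in NC and 70, 63 and 51 in Si-HOXA3 (log2 fold change 0.23, SE 0.280, adjusted p = 0.902). SNAI1, the close relative of SNAI2, had 18, 21 and 36 counts in NC and 35, 35 and 16 in Si-HOXA3 (log2 fold change 0.24, SE 0.397, adjusted p = 0.926). The SE of SNAI1 was larger than its fold change, which was 0.06 with NC replicate 1 left out, 0.09 with Si-HOXA3 replicate 2 left out and 0.59 with NC replicate 3 left out, the latter above the 0.54 of VIM in the same fit. TWIST1 was 0.44 with NC replicate 1 left out, where VIM was 0.43, and -0.01 with NC replicate 3 left out.

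ZEB1 and ZEB2, large zinc finger and homeodomain factors that repress epithelial genes, were close to the limit of detection. ZEB1 was counted 5, 7 and 0 times in NC and 4, 2 and 4 times in Si-HOXA3, and ZEB2 was counted 1, 5 and 3 times in NC and 4, 6 and 4 times in Si-HOXA3. A count of 0 in a library allows a level of up to 3 counts, or 0.196 CPM in NC replicate 3, a bound that covers counting error only. Neither gene passed the filter and neither was tested. ZEB1-AS1, on the opposite strand of ZEB1, had 43, 42 and 35 counts in NC and 60, 99 and 32 in Si-HOXA3, more than ZEB1 in every library, so without a stated strand setting the few ZEB1 counts cannot be told apart from reads of its antisense partner.

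Levels of different genes were compared as CPM per kilobase of the union of their exons. In NC, CDH1 stood at 107, CDH3 at 105 and EPCAM at 104 CPM per kilobase, and neighbours in this order did not differ beyond their spread. VIM followed at 48.4, SNAI2 at 7.59 and CDH2 at 6.37 CPM per kilobase, each below the one before it in all NC libraries. The level per length was 1.76 for TWIST1, 0.977 for SNAI1, 0.0307 for ZEB1 and 0.00789 for ZEB2, and the libraries of TWIST1 and SNAI1 overlapped, as did those of ZEB1 and ZEB2. Thus E-cadherin and P-cadherin messages far outnumbered N-cadherin per length in both groups. In Si-HOXA3 the corresponding levels were 102 for CDH1, 105 for CDH3, 123 for EPCAM, 68.3 for VIM, 7.70 for SNAI2 and 7.71 CPM per kilobase for CDH2, the last pair overlapping. With the length of the longest transcript in place of the exon union, 7 of the 10 genes kept their rank in NC, and EPCAM moved above CDH1 and CDH3. On that scale VIM stood at 93.6 in NC, below CDH1 at 135 and CDH3 at 133, and at 132 in Si-HOXA3, below CDH3 at 133 and above CDH1 at 129.

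Ratios within a library do not depend on its depth. CDH2 counts per 100 CDH1 counts were 4.44, 4.86 and 5.01 in NC and 6.07, 7.27 and 5.12 in Si-HOXA3, with means of 4.77 ± 0.295 and 6.15 ± 1.08. The groups did not overlap, the nearest being 5.12 against 5.01, and the difference between the means was 1.39, or 0.826 with Si-HOXA3 replicate 2 left out and 1.90 with Si-HOXA3 replicate 3 left out. VIM counts per EPCAM count were 0.854, 1.02 and 0.984 in NC and 1.04, 1.12 and 1.29 in Si-HOXA3, again without overlap but with the nearest libraries close together. CDH3 counts per CDH1 count were 0.973, 0.989 and 1.01 in NC and 0.993, 1.25 and 0.936 in Si-HOXA3, so these groups overlapped. The difference in VIM per EPCAM was 0.198, or 0.128 with Si-HOXA3 replicate 3 left out, and that in CDH3 per CDH1 was 0.0675, or -0.027 with Si-HOXA3 replicate 2 and 0.129 with Si-HOXA3 replicate 3 left out. No test was made on these ratios.

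Of the 8 members tested, 7 had a higher mean in Si-HOXA3 and 1 a lower one, and the median log2 fold change was 0.23, against 0.0019 over all genes tested. None had an adjusted p under 0.05, a threshold that 1 of the 16561 genes passed (0.00604%). Unadjusted p-values under 0.05 were found for 2 members, VIM and CDH2, both higher, where 6.36% of all genes tested passed this threshold, 3.79% of them higher and 2.57% lower. In the same 2 members the Si-HOXA3 range lay wholly above the NC range, which held for 6.38% of all genes, and in no member did it lie wholly below, which held for 6.89%. With 1 library left out, 5 to 7 of the 8 had a higher mean. The median rested on single libraries, being 0.07 without Si-HOXA3 replicate 2 and 0.33 without Si-HOXA3 replicate 3.

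**Figure D2:**
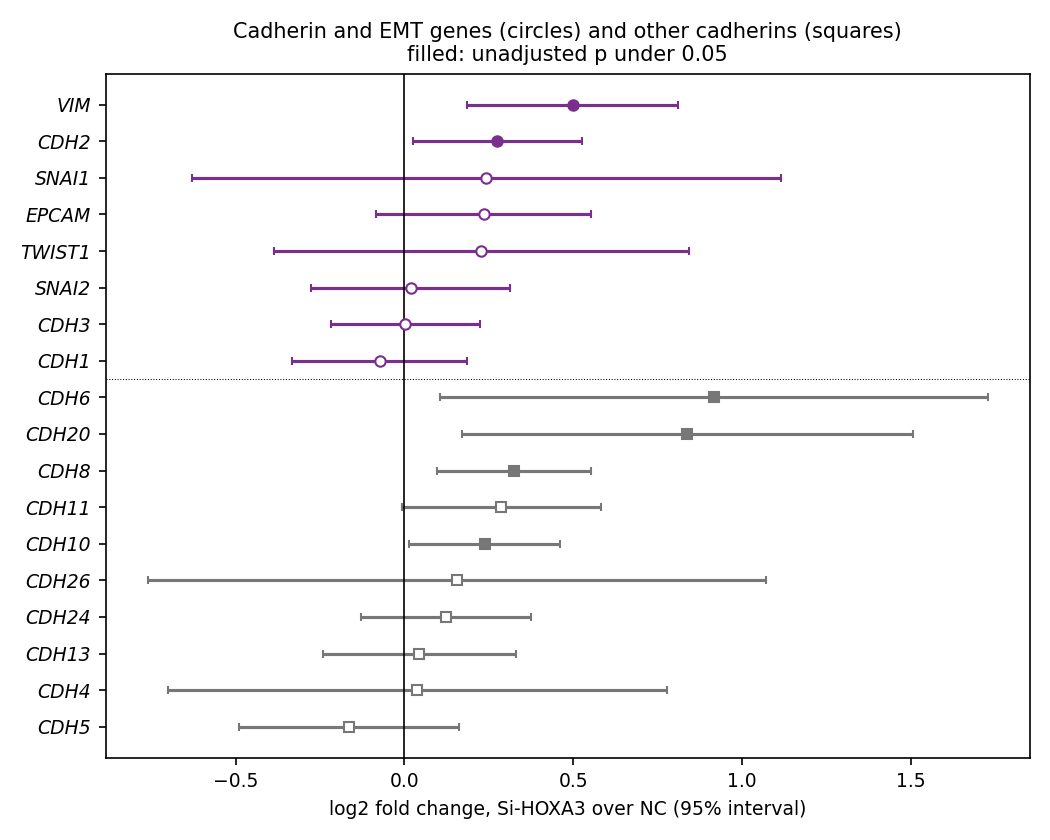
Log2 fold change of Si-HOXA3 over NC from edgeR for the 8 members tested and 10 other cadherins, with 95% intervals as bars and filled points for an unadjusted p under 0.05. The intervals of VIM (0.19 to 0.81), CDH2 (0.03 to 0.53) and 4 other cadherins exclude 0, and that of CDH3 is centred on it; no gene shown had an adjusted p under 0.05.

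The other classical and related cadherins show what further adhesion receptors the cultures made. With CDH1, CDH2 and CDH3, 22 cadherins were in the table and 13 were tested. CDH1 and CDH3 together made up 79.3% of the summed level per length of all 22 in NC and 76.7% in Si-HOXA3. Next came CDH24 at 21.5 and CDH10 at 16.0 CPM per kilobase in NC, both above the 6.37 of CDH2. CDH5, the cadherin of endothelium, stood at 3.62 CPM per kilobase, CDH8 at 3.07, CDH13 at 2.26 and CDH11, a cadherin of mesenchyme, at 1.27.

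**Figure D3:**
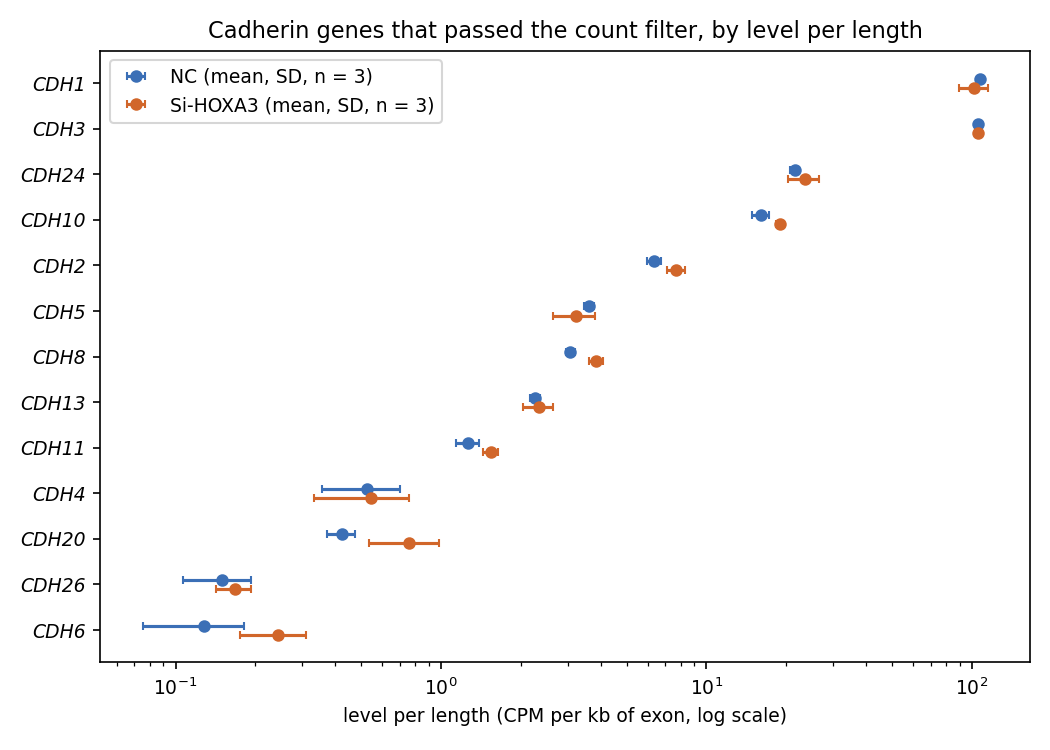
Level of the 13 tested cadherins as CPM per kilobase of exon on a logarithmic axis, as the mean ± SD of 3 libraries per group. CDH1 (107 in NC) and CDH3 (105 in NC) lie above CDH24 (21.5), CDH10 (16.0) and CDH2 (6.37).

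Of the 19 cadherins besides the members, 10 were tested, 9 of which had a higher mean in Si-HOXA3 and 1 a lower one, with a median log2 fold change of 0.20 (0.03 with Si-HOXA3 replicate 3, 0.11 with NC replicate 2 and 0.30 with NC replicate 1 left out). Unadjusted p-values under 0.05 were found for CDH6, CDH8, CDH10 and CDH20, all higher in Si-HOXA3, where 3.79% of all genes tested were, and none of the 10 passed the adjusted threshold. CDH8, a cadherin of developing brain circuits, had 637, 642 and 606 counts in NC and 708, 813 and 762 in Si-HOXA3, with means of 41.5 ± 1.68 and 52.0 ± 3.00 CPM and no overlap. Its log2 fold change was 0.32 (SE 0.104, unadjusted p = 0.00951, adjusted p = 0.665), and its unadjusted p stayed under 0.05 in all settings tried. CDH10 had means of 58.6 ± 4.40 and 69.0 ± 2.17 CPM, again without overlap (log2 fold change 0.24, adjusted p = 0.757).

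CDH6, which is known from kidney and neural crest, and CDH20 were rare messages. CDH6 was counted 27, 32 and 13 times in NC and 57, 43 and 32 times in Si-HOXA3 (log2 fold change 0.92, SE 0.369, adjusted p = 0.733). CDH20 was counted 27, 29 and 23 times in NC and 60, 44 and 33 times in Si-HOXA3 (log2 fold change 0.84, SE 0.304, adjusted p = 0.724). Scaled to CPM neither overlapped between groups. The number of these 10 cadherins that were higher with an unadjusted p under 0.05 ranged from 1 to 5 over the settings, being 1 when either NC replicate 3 or Si-HOXA3 replicate 1 was left out. CDH24, the highest of them per length, had overlapping groups at 80.5 ± 3.12 and 87.7 ± 12.0 CPM (log2 fold change 0.12, or 0.02 to 0.22 over the settings, adjusted p = 0.873).

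The cytoplasmic partners of cadherins were measured as well. Of 13 adherens junction genes 12 were tested, 4 with a higher and 8 with a lower mean in Si-HOXA3, the median log2 fold change being -0.02 (-0.11 with Si-HOXA3 replicate 1 and 0.01 with Si-HOXA3 replicate 2 left out), and none had an unadjusted p under 0.05. CTNNB1, the beta-catenin that binds the cadherin tail and also carries Wnt signals, stood at 1126 ± 87.1 CPM in NC and 1113 ± 139 in Si-HOXA3. CTNND1, the p120-catenin that keeps cadherins at the membrane, stood at 623 ± 5.31 and 592 ± 69.6 CPM. CTNNA1, the alpha-catenin that links the complex to actin, stood at 565 ± 9.13 and 561 ± 7.67 CPM. The groups overlapped for all 3.

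Of 15 further transcription factors tied to EMT 12 were tested, 8 with a higher and 4 with a lower mean, with a median log2 fold change of 0.09 (-0.02 with NC replicate 2 left out). TCF3, whose E2A proteins bind E-boxes, was the 1 gene with an unadjusted p under 0.05, a threshold that 6.36% of all genes tested passed. Its counts were 2004, 1986 and 1750 in NC and 2249, 2258 and 2199 in Si-HOXA3 without overlap in CPM (log2 fold change 0.27, SE 0.0991, adjusted p = 0.724). ID1 and ID3, inhibitors that take up E proteins and answer to BMP, stood at 365 ± 20.6 and 141 ± 16.6 CPM in NC, and their Si-HOXA3 libraries spread widely, at 347 ± 109 and 153 ± 42.5 CPM. SOX4 stood at 217 ± 7.19 and 226 ± 14.9 CPM. PRRX1, a factor of mesenchyme, had no count in any library.

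Factors of the epithelial state were present throughout, and all 23 were tested. A higher mean in Si-HOXA3 was found for 14 and a lower one for 9, with a median log2 fold change of 0.05 (-0.05 with Si-HOXA3 replicate 2 and 0.09 with Si-HOXA3 replicate 1 left out). The simple-epithelium keratins KRT8 and KRT18 stood at 3622 ± 152 and 1484 ± 54.9 CPM in NC and at 3737 ± 510 and 1477 ± 327 CPM in Si-HOXA3. KRT19 stood at 1260 ± 15.1 and 1487 ± 333 CPM, the groups of all 3 keratins overlapping. Of the 50-base stretches of the longest transcript, 22.1% for KRT8 and 33.4% for KRT18 also occur in transcripts of other genes. CLDN7, a claudin of tight junctions, had 67.0 ± 4.77 CPM in NC and 83.0 ± 9.52 in Si-HOXA3 (log2 fold change 0.31, unadjusted p = 0.0195, adjusted p = 0.724). The groups of CLDN7 did not overlap.

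Of 18 mesenchyme markers 17 were tested, 12 with a higher and 5 with a lower mean, with a median log2 fold change of 0.15 (0.09 with NC replicate 3 and 0.10 with Si-HOXA3 replicate 1 left out). Unadjusted p-values under 0.05 were found for 3 higher genes and 1 lower one, beside 3.79% and 2.57% of all genes tested. The matrix metalloproteinase MMP2 had 246 ± 5.82 CPM in NC and 296 ± 3.49 in Si-HOXA3 (log2 fold change 0.27, adjusted p = 0.720). The surface glycoprotein THY1 had 13.5 ± 0.597 and 18.0 ± 1.62 CPM (log2 fold change 0.41, adjusted p = 0.699). For the proteoglycan decorin (DCN) the levels were 28.0 ± 5.44 and 38.7 ± 10.3 CPM with overlapping groups (log2 fold change 0.47, or 0.25 to 0.68 over the settings, adjusted p = 0.761). COL6A3, a chain of collagen VI, was the lower gene, with 11.6 ± 0.504 and 7.91 ± 2.78 CPM (log2 fold change -0.55, or -0.73 to -0.29 over the settings, adjusted p = 0.762). COL1A1, FN1 and LUM overlapped between groups, at 1496 ± 133, 1028 ± 249 and 1105 ± 214 CPM in Si-HOXA3.

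Summed over the list, mesenchyme markers came to 7510, 7550 and 7230 CPM in NC and 7647, 7374 and 8103 CPM in Si-HOXA3, so the groups overlapped, whereas the VIM groups did not. The epithelial list came to 8689, 8862 and 8602 CPM in NC and 8247, 10693 and 8386 CPM in Si-HOXA3, and the library labelled Si-HOXA3 replicate 2, the highest for VIM and EPCAM, was the highest here too. Amnion and trophoblast markers came to 5134, 5351 and 5488 CPM in NC and 5667, 6283 and 6017 CPM in Si-HOXA3, without overlap. Their part in the VIM and CDH2 values was not tested. Of these 9 genes, all tested, 7 had a higher and 2 a lower mean (median log2 fold change 0.13, or 0.07 with NC replicate 2 left out), and TFAP2A, a factor of surface ectoderm, amnion and neural crest, had an unadjusted p of 0.0496 (236 ± 20.9 and 277 ± 8.13 CPM, adjusted p = 0.781).

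Other cell types that carry CDH2, CDH5 or VIM were read from their markers. Among 8 neural crest and neural genes 3 were tested, 2 with a higher and 1 with a lower mean (median log2 fold change 0.21, or 0.46 with Si-HOXA3 replicate 2 left out); FOXD3 had no count. TFAP2B, a factor of neural crest and amnion, had 148, 155 and 164 counts in NC and 220, 214 and 250 in Si-HOXA3 without overlap (log2 fold change 0.60, SE 0.149, unadjusted p = 0.00186, adjusted p = 0.486). NES, an intermediate filament gene of progenitors, stood at 71.2 ± 9.77 and 82.4 ± 10.6 CPM and PAX3 at 1.28 ± 0.549 and 1.05 ± 0.219 CPM, both with overlap. The summed level of the list was 95.3, 79.4 and 76.8 CPM in NC and 111, 93.8 and 95.4 CPM in Si-HOXA3.

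Among endothelial markers, the VEGF receptor KDR, which mesoderm progenitors also express, stood at 92.9 ± 3.85 CPM in NC and 81.0 ± 19.2 in Si-HOXA3. TEK stood at 3.75 ± 1.18 and 2.92 ± 1.21 CPM, TIE1 had at most 6 counts, and PECAM1 and ERG, which define endothelium, had none, although CDH5 was detected. Both tested genes of the 5 had a lower mean (median log2 fold change -0.28, or -0.12 with Si-HOXA3 replicate 2 and -0.47 with Si-HOXA3 replicate 1 left out), with overlap. All 4 tested pluripotency genes of 5 had a higher mean (median log2 fold change 0.17, or 0.09 with Si-HOXA3 replicate 2 and 0.31 with Si-HOXA3 replicate 3 left out), none with an unadjusted p under 0.05: LIN28A was at 1146 ± 62.7 CPM in Si-HOXA3, DPPA4 at 101 ± 7.43 and 106 ± 10.0 CPM, and POU5F1 at 7.02 ± 1.28 CPM in Si-HOXA3. The median of the 3 tested endoderm and pouch genes, of which HOXA3 is 1, was 0.17, with 2 higher and 1 lower, and it turned to -0.25 with NC replicate 1 left out and to -0.05 when only genes over 1 CPM in 3 or more libraries were kept. It was 0.10 with Si-HOXA3 replicate 2 left out.

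The 95 tested genes of the other lists were searched for those most like 4 of the members by Pearson correlation of log2 CPM over the 6 libraries, given as a description, since the libraries share their groups and the departure of replicate 2. Nearest to CDH1 were CTNND1 (r = 0.99) and VCL, the junction and focal adhesion protein vinculin (r = 0.98). Nearest to EPCAM were KRT19 (r = 0.99) and the matrix protein gene SPARC (r = 0.88). CDH2 lay nearest to LIN28A (r = 0.95) and VTCN1 (r = 0.91), and VIM nearest to POU5F1 (r = 0.98) and IGFBP3 (r = 0.94). Of the 50-base stretches of the longest POU5F1 transcript, 39.4% also occur in transcripts of other genes. Part of its count thus depends on how reads with several matches were counted.

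**Figure D4:**
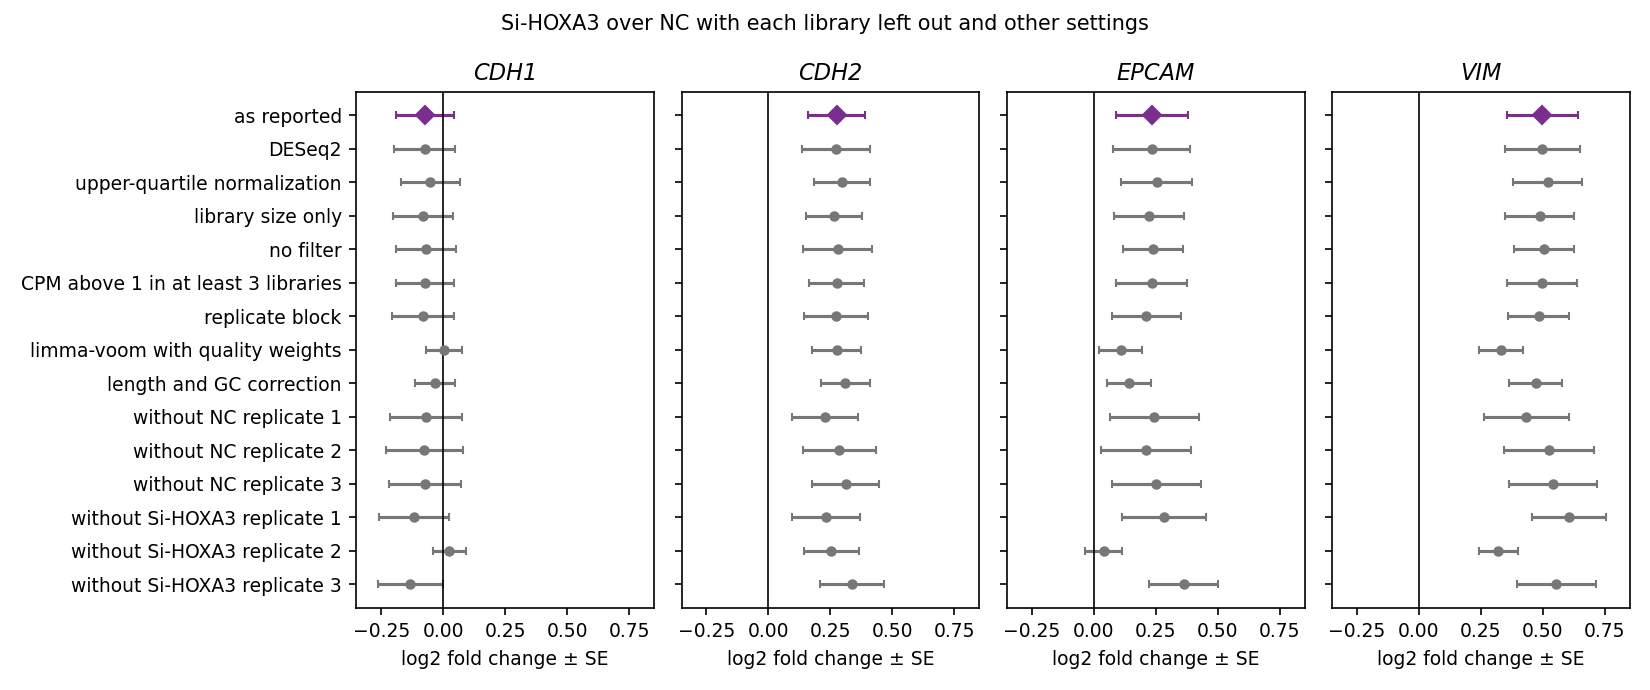
Log2 fold change of Si-HOXA3 over NC (point, with its SE as a bar) of CDH1, CDH2, EPCAM and VIM under the main setting and each alternative. CDH2 (0.23 to 0.34) and VIM (0.32 to 0.61) stay above 0 throughout, EPCAM drops to 0.04 and CDH1 crosses 0 to 0.02 without Si-HOXA3 replicate 2.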

How the data were processed

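The authors deposited 1 table of raw counts of single reads per gene for 6 libraries, without normalization. The methods name the LM-Seq protocol and the labels a SMARTER kit. The aligner, the counting program and the use of strand are not given in the sources used here, and the submitters' processing notes list GRCm38 and mm10. All 58735 identifiers were found in GENCODE 29 (GRCh38), the source of symbols, positions and lengths.

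The test was edgeR's two-sided robust quasi-likelihood test (edgeR 4.0.16 in R 4.3.3) after TMM normalization and filterByExpr, and p-values were adjusted by Benjamini-Hochberg over 16561 genes. CPM uses TMM-normalized library sizes. The methods were tested on simulated counts over 16554 genes with a dispersion of 0.02. There 91% of 200 changed genes were recovered (87% at a log2 of 1, 95% at a log2 of 2) and 4.71% of calls were false. The largest log2 fold change of a member was 0.50, and changes that small were not simulated. These shares therefore do not say how often a difference of the members' size would be found.

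Members and lists (other cadherins, adherens junction partners, EMT factors, epithelial, mesenchyme, neural crest and neural, endothelial, pluripotency, amnion and trophoblast, endoderm and pouch genes) were chosen with earlier results of these data known. Named were the members, HOXA3, the 3 most abundant genes of each list, those with an unadjusted p under 0.05, and the 2 genes most like CDH1, CDH2, EPCAM and VIM. Further genes (CDH5, CDH11, CDH13, PRRX1, FOXD3, PECAM1, ERG, SOX17, FOXA2, PAX1) were named after their values were seen, and single values of a few genes are not reported here.

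Alternatives were DESeq2 1.42.0, other normalizations and filters, limma-voom (limma 3.58.1) with quality weights, a replicate block, each library left out and, for levels, the longest transcript. Correcting for GC content and transcript length (mgcv 1.9.3) was added after seeing the data.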

Additional observations from a re-analysis of the deposited data

How the results depend on the processing

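Of 112 alternative values of the 8 members tested, 100 kept the direction and the side of the adjusted threshold, 11 changed direction and 1 passed the threshold, VIM with no filter on low counts (log2 fold change 0.50, adjusted p = 0.0165). Under limma-voom CDH1 was 0.0043 and CDH3 -0.0020, and CDH3 was -0.0070 when scaled by library size only. With 1 library left out, CDH1 ranged from -0.13 to 0.024 (Si-HOXA3 replicate 2 left out), CDH3 from -0.017 (Si-HOXA3 replicate 2 left out) to 0.026, SNAI1 from 0.062 to 0.59, SNAI2 from -0.090 (Si-HOXA3 replicate 1 left out; -0.012 for NC replicate 1) to 0.12, TWIST1 from -0.011 (NC replicate 3 left out) to 0.44, and the group difference in CDH3 per CDH1 from -0.027 (Si-HOXA3 replicate 2 left out) to 0.129. The cause of these changes was not tested.

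Genes with an adjusted p under 0.05 numbered 1 as reported, 38 under DESeq2, 47 under limma-voom, 100 when no filter was applied, 7 with the length and GC correction and 1 to 24 with 1 library left out, 24 being without Si-HOXA3 replicate 2. With an unadjusted p under 0.05 they numbered 1053, against 1862 with no filter, 2206 with limma-voom and 643 (NC replicate 2) to 1828 (Si-HOXA3 replicate 2) with 1 library left out, 671 being for NC replicate 3. Members with an unadjusted p under 0.05 numbered 1 to 3 with 1 library left out. With the replicate block, 4 genes had an adjusted p under 0.05, and of the members VIM alone had an unadjusted p under 0.05 (count 1, with CDH2 at 0.0544). Deviations of libraries with the same number correlated at 0.158, 0.111 and -0.0714. Whether libraries with the same number were prepared together cannot be told from these correlations alone.

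SNAI1, TWIST1, ZEB1 and ZEB2 had at most 70 counts in any library, so counting error is largest for them.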
